A study of Mus musculus with 21 samples.

Results

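Interferon-stimulated genes are the genes that cells switch on when an interferon binds its receptor. A set of 36 such genes was followed here through the colon and ileum of mice altered in their vitamin D receptor (VDR), and the members were chosen by gene symbol from a fixed list rather than from their values. Of these, 35 were found among the 21441 genes of each deposited table; Gbp7 was not found under its symbol. They comprise 2 genes of ubiquitin-like conjugation, 3 Ifit genes, 4 nucleic acid sensors, 6 oligoadenylate synthetases, 6 antiviral effectors, 5 transcription factors, 3 guanylate-binding proteins, 3 immunity-related GTPases and 3 genes of antigen processing.

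RNA of colon and ileum, labelled as intestinal epithelium of C57BL6J mice, was sequenced in 21 libraries to ask what the distal gut adds to calcium balance. KO mice carried Villin-CreERT2 and floxed VDR (VDR f/f), so that VDR was lost only from cells in which the villin promoter drives Cre; 4 colon and 4 ileum libraries came from males of 9 or 11 weeks. CDX2-VDR mice had no VDR of their own and expressed a human VDR transgene from a CDX2 promoter, active in the distal intestine. Uninjected CDX2-VDR mice gave 4 colon libraries (3 labelled female, of 9 weeks, and 1 male, of 10 weeks) and 3 ileum libraries (2 female of 9 weeks and 1 male of 10 weeks); treated CDX2-VDR mice were males of 9 weeks that received 1 ng per g of body weight of 1,25D3, the hormone that binds VDR, in 3 injections 48, 24 and 6 h before the end, with 3 libraries per tissue. Wild-type mice are not analysed here. KO and CDX2-VDR mice differ in the site and way of VDR loss and in the transgene. Uninjected mice also differ from the KO males in labelled sex, and from treated mice in labelled sex and in the injection itself. Treated mice also differ from KO mice in 1,25D3 and its injections, which no KO label lists. Ages differ as well, with 11 weeks only among KO mice and 10 weeks only among uninjected mice. In each comparison these cannot be told apart. The labels name no animal, so p-values describe the spread between libraries, which may be technical.

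Type I interferons and the interferon lambdas act through JAK kinases on a complex that holds STAT2 and IRF9 and binds a DNA element called ISRE; interferon gamma acts mainly through a second element called GAS. The products of the induced genes sense or cut viral RNA, attack the vacuoles of intracellular microbes, and load peptides on MHC class I. In the intestine, tonic signals from microbes keep part of this set on in the resting epithelium, and interferon lambda acts mainly on epithelial cells.

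Part of the promoters of the set show these elements. RefSeq windows from 250 bases before to 50 after the start site (GRCm38.p6) were matched by symbol for 28 of the 35 members. The ISRE letters (GAAA, any 2 bases and GAAA again, or TTTC, any 2 bases and TTTC on the other strand) were present for 15 of these members (53.6%), against 3.99% of 27025 genes with a window. The GAS letters TTCNNNGAA, which read the same on both strands, were present for 7 members (25%), against 9.55% of genes. The members belong to the set because of such induction, so this enrichment is a description of the list and not a finding of these libraries. The 120 bases before a start site are shown for 7 members that the results below name, with every ISRE or GAS match in capitals and the rest in lower case. All 7 carry a match. The windows of Tap1, Psmb9, Oasl1, Oasl2, Cmpk2, Xaf1, Ifi44, Irf7 and Irf9, also named below, hold neither element. Isg15 (chr4:156200819-156200938, minus strand) holds 3 overlapping ISRE matches, Ifit1 (chr19:34640769-34640888, plus strand) 2 separate ones and Gbp3 (chr3:142559924-142560043, plus strand) 2 overlapping ones. The neighbouring copies Oas1a (chr5:120907526-120907645, minus strand) and Oas1g (chr5:120887614-120887733, minus strand) each carry the same 2 overlapping ISRE matches, and the first also a GAS match. Igtp (chr11:58199436-58199555, plus strand) has both elements, and Irf1 (chr11:53769894-53770013, plus strand) has a GAS match without ISRE letters in the stretch. RefSeq gives Gbp3 and Irf1 a second start site each; the 120 bases before it (chr3:142560236-142560355 and chr11:53770353-53770472) hold neither element and are not shown.
Isg15: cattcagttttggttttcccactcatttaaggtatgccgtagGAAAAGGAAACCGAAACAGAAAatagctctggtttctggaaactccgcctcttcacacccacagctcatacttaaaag
Ifit1: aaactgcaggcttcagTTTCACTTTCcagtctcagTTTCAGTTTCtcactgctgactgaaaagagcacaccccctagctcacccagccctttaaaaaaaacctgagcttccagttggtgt
Oas1a: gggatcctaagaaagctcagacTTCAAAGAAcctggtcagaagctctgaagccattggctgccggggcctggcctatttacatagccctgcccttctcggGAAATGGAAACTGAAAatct
Oas1g: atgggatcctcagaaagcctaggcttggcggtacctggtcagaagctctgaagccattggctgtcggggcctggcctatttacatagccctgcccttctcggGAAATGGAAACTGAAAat
Gbp3: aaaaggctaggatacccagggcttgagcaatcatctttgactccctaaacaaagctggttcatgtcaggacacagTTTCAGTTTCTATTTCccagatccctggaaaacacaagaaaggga
Igtp: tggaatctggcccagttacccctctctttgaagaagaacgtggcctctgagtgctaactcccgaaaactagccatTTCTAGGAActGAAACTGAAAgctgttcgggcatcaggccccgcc
Irf1: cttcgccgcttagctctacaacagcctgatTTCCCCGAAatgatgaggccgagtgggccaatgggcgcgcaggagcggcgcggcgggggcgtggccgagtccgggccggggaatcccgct

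Values are FPKM (fragments per kilobase of transcript scaled to the reads mapped), a level that is comparable between genes because it is divided by length. Depth estimated from the value steps lay between 11.4 and 60.9 M reads a library. The 9 epithelial markers (among them Epcam and Vil1) summed to at least 8216 FPKM in every colon library and 8841 FPKM in every ileum library. Pancreatic acinar transcripts, from a tissue outside the label, reached a median above 100 FPKM in Colon KO 2, Colon uninjected 3 and Colon treated 4. The slope of expression on the GC content of transcripts stood apart in Colon uninjected 1 (0.86 log2 units per 10 percentage points), Ileum uninjected 3 (0.98) and Ileum treated 1 (0.98), while the other libraries lay between -0.54 and 0.45. Gene positions are those of mm9 (NCBI build 37). Libraries are named by group and the number of their column; the values below were brought to the scale of the KO and uninjected table of their tissue, and each comparison of groups was tested within its own table.

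No member passed the threshold in any of the 6 comparisons (limma on log2(FPKM + 0.5), adjusted p under 0.05 over all genes tested), and few other genes did. In the colon, uninjected against KO mice gave 0 of 35 members tested at a background of 0.0804% of genes called, treated against uninjected 0 of 35 at a background of 0%, and treated against KO 0 of 35 at 0.296%. In the ileum, where Ifit2 and Oas2 lay under the filter of a mean of 1 FPKM, the counts were 0 of 33 in each comparison, at 0.00846%, 0% and 0.0835% of genes called in the same order. With an unadjusted limma p under 0.05, the members numbered 0 (background 4.6%), 0 (1.14%) and 3 (7.31%) in the colon and 5 (5.42%), 0 (0.821%) and 4 (3.65%) in the ileum. All 12 of these were higher in CDX2-VDR mice than in KO mice. They were Zbp1, Gbp3 and Isg15 in treated colon (background for higher values 3.85%), Tap1, Irf8, Zbp1, Psmb9 and Irf1 in uninjected ileum (3.46%), and Zbp1, Usp18, Tap1 and Igtp in treated ileum (2.08%). The last 2 comparisons with KO share the KO libraries, as do those of the colon.

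Member medians lay a little above those of all genes. In the colon the median log2 difference of the members was 0.14 for uninjected minus KO, 0.19 for treated minus uninjected and 0.33 for treated minus KO, against -0.01 for all genes in each. In treated minus KO colon, 30 of 35 members had a positive difference, where 49% of all genes had one. In the ileum the medians were 0.09, 0.05 and 0.20, against 0.01, -0.02 and 0.00. Leaving out 1 library turned the sign of 5 of the 6 medians, treated minus KO ileum being the exception. Without Colon treated 1 the treated minus KO median of the colon was -0.09 and the treated minus uninjected median -0.27, and the latter was -0.16 without Colon uninjected 1. The uninjected minus KO median of the colon was -0.10 without Colon uninjected 4 and -0.0011 without Colon uninjected 2, and that of the ileum was -0.11 without Ileum uninjected 1. The treated minus uninjected median of the ileum was -0.10 without Ileum uninjected 3, -0.07 without Ileum treated 2 and -0.08 without Ileum treated 4, and with the column number as a replicate block it was -0.15, with 9 of 33 members positive.

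**Figure D1:**
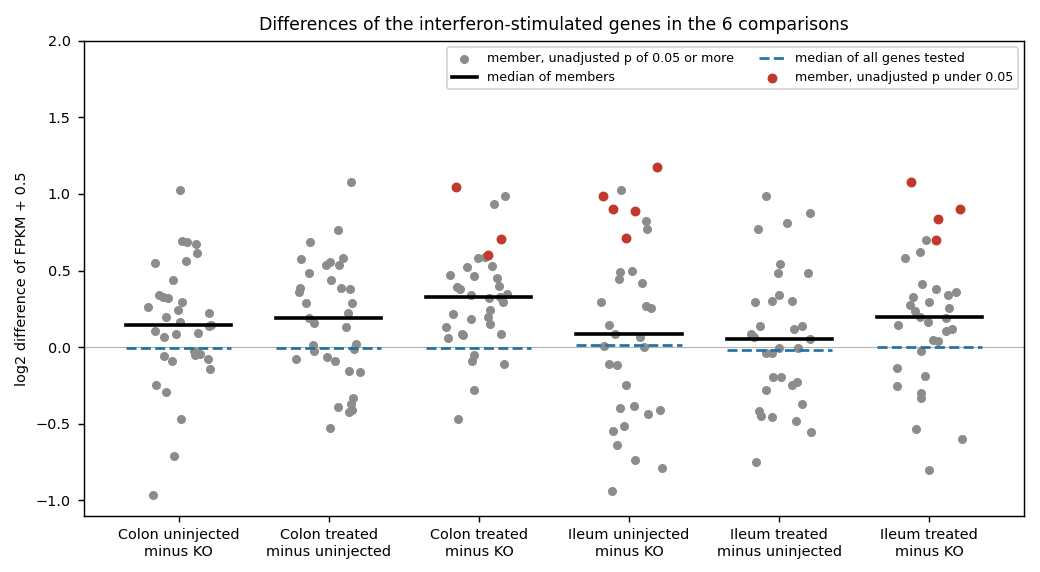
Each point is one member's log2 difference of FPKM + 0.5 between the groups named below it; red points have an unadjusted limma p under 0.05, the black line is the members' median and the blue dashed line the median of all genes tested. The 12 red points all lie above 0 and belong to comparisons with KO mice, and the black lines lie between 0.05 and 0.33.

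Libraries of one group differed widely for these genes. In the colon, Colon treated 1 exceeded the tissue mean for 33 of 35 members, Colon uninjected 2 for 30 and Colon uninjected 4 for 29, whereas Colon treated 2 and Colon KO 2 did so for 5 each and Colon uninjected 1 for 7. High and low libraries thus occurred within each of the CDX2-VDR groups, while the KO libraries ranged from 5 to 23 members above the mean. The median SD of the members within groups was 0.73 on the log2 scale in the colon, against 0.44 for all 12481 genes tested, and 0.65 against 0.51 in the ileum. It was largest for Iigp1 in both tissues (1.39 and 1.35) and smallest for Irf8 in the colon (0.29) and Irf9 in the ileum (0.10). Members varied together across libraries once group means were removed: the median correlation between pairs was 0.55 over 11 colon libraries and 0.22 over 10 ileum libraries. The correlation among other genes was not computed, so it is not known whether this is particular to the members. Depth and base composition differ between libraries and are shared by the members within each, as is any common signal.

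**Figure D2:**
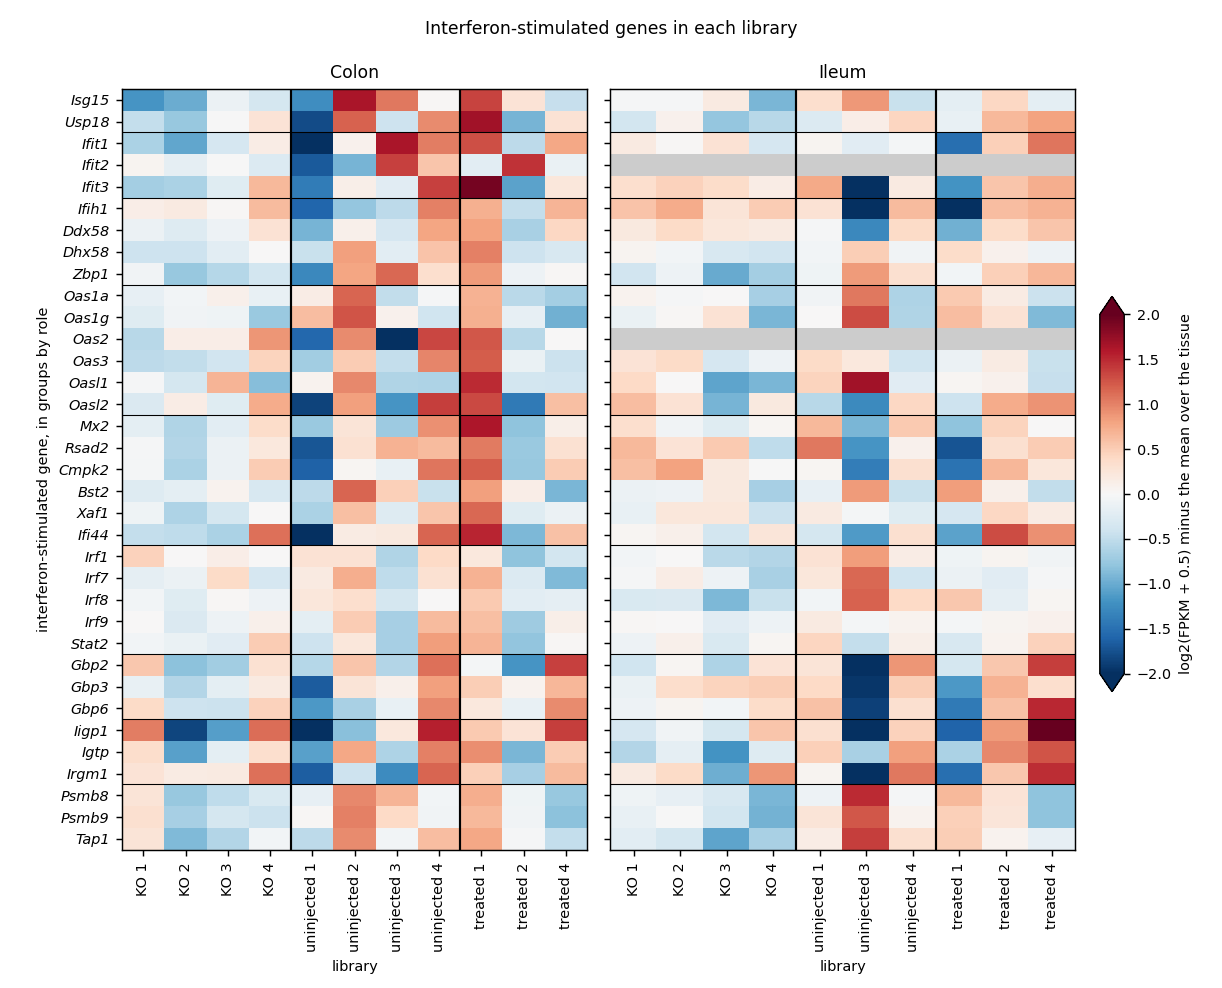
Colour gives log2(FPKM + 0.5) minus its mean over the libraries of the tissue, for each member (rows, in groups by role separated by thin lines) and library (columns, with groups separated by thick lines); grey cells are the 2 members under the filter in the ileum. Colon treated 1 is red for 33 of 35 members and Colon uninjected 1 blue for most, and in Ileum uninjected 3 the rows split into red and blue.

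Isg15 and Usp18 belong to ubiquitin-like conjugation. Isg15 (chr4:155573533-155574927), a ubiquitin-like protein that is joined to other proteins, stood at 44.1, 50.5, 92.5 and 79.1 FPKM in KO colon, 42.2, 312, 211 and 102 in uninjected and 258, 122 and 73.1 in treated colon. The 2 highest KO values lay above the lowest value of both other groups. Its log2 difference was 1.05 ± 0.44 for treated minus KO (adjusted p = 0.671) and 1.03 ± 0.56 for uninjected minus KO (adjusted p = 0.721). In the ileum Isg15 was 53.7, 54.1, 62.5 and 29.0 FPKM in KO mice, 69.1, 100.1 and 40.3 in uninjected and 47.8, 73.4 and 47.7 in the treated group, with all groups overlapping. Usp18 (chr6:121195924-121220934), the protease that removes ISG15 and dampens the type I receptor, was 6.70, 9.35, 4.95 and 5.83 FPKM in KO ileum, 7.15, 9.68 and 12 in uninjected and 7.82, 14.1 and 15.8 in treated ileum. Of the treated libraries, Ileum treated 1 fell within the KO range and the other 2 lay above it, and the treated minus KO difference was 0.84 ± 0.32 (adjusted p = 0.939). In the colon, Usp18 reached 33.5 FPKM in Colon treated 1 and 23.6 in Colon uninjected 2, and lay between 2.58 and 19.98 in the other 9 libraries.

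Among the Ifit genes, whose proteins bind viral RNA ends, Ifit1 (chr19:34715361-34724499) was 26.4, 19.8, 32.6 and 46.0 FPKM in KO colon, 7.31, 43.7, 129 and 84.8 in uninjected and 102, 28.7 and 71.0 in treated colon. Colon treated 2 lay inside the KO range, and the treated minus KO difference was 0.98 ± 0.44 (adjusted p = 0.691). Ileum treated 1 had the lowest Ifit1 value of the ileum, 8.60 FPKM, where KO libraries held 28.6, 25.7, 31.0 and 20.01. Ifit3 ranged from 4.50 to 48.9 FPKM in the colon, and in the ileum was lowest in Ileum uninjected 3 (0.782) and Ileum treated 1 (2.30). Ifit2 was low, between 0.267 and 1.82 FPKM in the ileum and up to 7.16 in the colon. Its ileum values took few steps: at equal read worth they were 1, 2, 3.04, 7.06 or 7.08 times the lowest, so single libraries of this gene carry little resolution.

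Of the nucleic acid sensors, Zbp1 (chr2:173032113-173044424), which binds Z-form nucleic acids and can start necroptosis, had the smallest p of the set in both tissues for treated minus KO. It stood at 80.8, 98.3, 51.8 and 65.6 FPKM in KO ileum, 98.5, 191 and 131 in uninjected and 101, 147 and 166 in treated ileum. All 6 CDX2-VDR libraries of the ileum lay above all 4 KO libraries, the closest by less than 1 FPKM. The differences were 0.90 ± 0.33 for uninjected minus KO (adjusted p = 0.665) and 0.90 ± 0.30 for treated minus KO (adjusted p = 0.939). In the colon Zbp1 was 67.3, 41.8, 47.4 and 54.5 FPKM in KO mice, 28.8, 122, 158 and 89.7 in uninjected and 129, 66.3 and 71.9 in the treated group. Colon treated 2 fell just inside the KO range there, and treated minus KO gave 0.71 ± 0.27 (adjusted p = 0.614). The RNA sensors Ifih1 (MDA5) and Ddx58 (RIG-I) did not share this order: Ifih1 was 17.5, 17.99, 16.2 and 25.0 FPKM in KO colon, 4.98, 9.09, 11.0 and 32.3 in uninjected and 26.2, 11.2 and 25.7 in treated colon, and treated minus uninjected gave 0.77 ± 0.59 (adjusted p = 1.00). In the ileum it was 2.21 FPKM in Ileum uninjected 3 and 2.25 in Ileum treated 1, against 14.1 or more in every other library. Dhx58 (LGP2), which tunes both sensors, had the narrowest range of the 4 genes in the ileum, from 3.38 to 6.61 FPKM.

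Oligoadenylate synthetases make the messenger that activates RNase L. Oas1g was 22.2, 25.0, 24.9 and 15.5 FPKM in KO colon, 40.8, 63.8, 27.8 and 19.8 in uninjected and 43.7, 23.4 and 13.3 in treated colon. The uninjected minus KO difference was 0.67 ± 0.35 (adjusted p = 0.721) and treated minus uninjected -0.53 ± 0.50 (adjusted p = 1.00). Oas1a and Oas1g are close copies on chromosome 5, and how their shared reads were split is uncertain. Oasl1 was 40.8, 30.9, 14.6 and 16.2 FPKM in KO ileum, 42.4, 100 and 26.2 in uninjected and 31.5, 32.7 and 22.3 in treated ileum, where 1 library of the uninjected group stood far above the rest; uninjected minus KO gave 1.02 ± 0.51 (adjusted p = 0.665) and treated minus uninjected -0.75 ± 0.51 (adjusted p = 1.00). Oasl2, its neighbour, went the other way: 13.1, 7.72 and 25.96 FPKM in uninjected against 14.4, 32.7 and 36.4 in treated ileum, a difference of 0.87 ± 0.55 (adjusted p = 1.00). Oasl2 also spanned the colon from 8.40 FPKM in Colon uninjected 1 to 82.8 in Colon uninjected 4, 2 libraries of one group. Oas2 and Oas3 were highest in Colon uninjected 4 (Oas2, 10.1 FPKM) and Colon treated 1 (Oas3, 23.9 FPKM).

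Antiviral effectors gave no member with an unadjusted p under 0.05 in any comparison. Xaf1, which promotes cell death, was 7.49, 5.07, 6.19 and 8.11 FPKM in KO colon and 18.3, 6.67 and 7.36 in treated colon, a difference of 0.52 ± 0.35 (adjusted p = 0.794) that Colon treated 1 carried, since the other 2 treated values lay within the KO range. Bst2 (tetherin, which holds budding virions at the cell surface) was the most abundant of the class, at 34.9 to 149 FPKM in the colon and 28.4 to 81.7 in the ileum. The neighbours Rsad2 (viperin) and Cmpk2, which make and supply a chain-terminating nucleotide, were within the colon both highest in Colon treated 1 (19.8 and 19.7 FPKM) and lowest in Colon uninjected 1 (2.50 and 2.36 FPKM). Mx2, a dynamin-like GTPase, never exceeded 5.80 FPKM, its value in Colon treated 1. Ifi44, a gene with an AT-rich transcript, was 0.781, 0.242 and 1.53 FPKM in uninjected and 0.278, 3.52 and 2.59 in treated ileum, with overlapping groups and a difference of 0.77 ± 0.69 (adjusted p = 1.00).

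**Figure D3:**
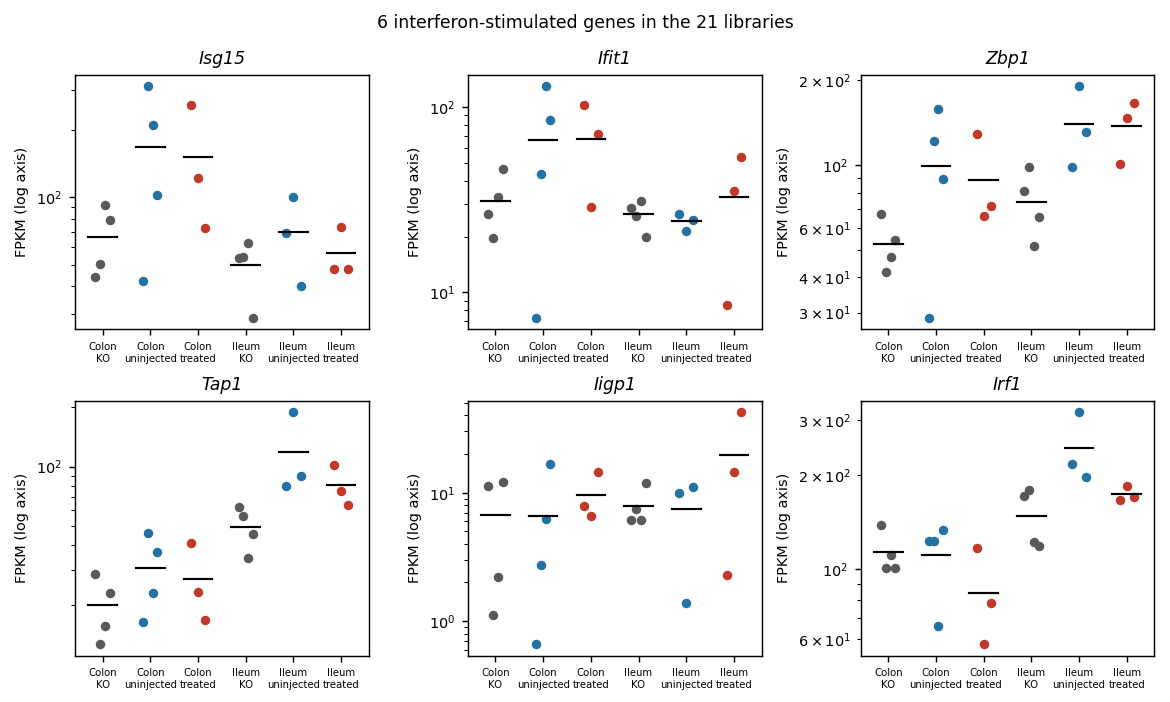
Points are FPKM of single libraries on a log axis for 6 members, black lines are group means, and colours mark KO (grey), uninjected (blue) and treated (red) groups of both tissues. The 6 CDX2-VDR libraries of the ileum lie above the 4 KO libraries for Zbp1 and Tap1, and overlap them for Isg15, Ifit1 and Iigp1; no colon comparison separates the groups for any of the 6 genes.

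Irf1 and Irf8 were the transcription factors whose ileum groups separated. Irf1 (chr11:53583516-53591876), the early factor induced through GAS, was 172, 179, 123 and 118 FPKM in KO ileum, 217, 317 and 197 in uninjected and 167, 184 and 170.0 in treated ileum. Uninjected values lay above both other groups; uninjected minus KO was 0.71 ± 0.30 (adjusted p = 0.665), and treated minus uninjected -0.46 ± 0.36 (adjusted p = 1.00). In the colon the order was not the same, with 139, 101, 111 and 101 FPKM in KO mice, 123, 124, 66.2 and 133 in uninjected and 117, 57.8 and 77.9 in the treated group, and treated minus KO gave -0.47 ± 0.26 (adjusted p = 0.749). Irf8 (chr8:123260258-123280594), a factor of myeloid and B cells as well as epithelium, was 69.1, 70.2, 45.5 and 62.7 FPKM in KO ileum, 82.3, 193 and 113 in uninjected and 125.004, 75.3 and 87.9 in treated ileum. All 6 CDX2-VDR values exceeded the 4 KO values; uninjected minus KO was 0.99 ± 0.34 (adjusted p = 0.665) and treated minus KO 0.62 ± 0.27 (adjusted p = 0.939). Irf9 and Stat2, which act together at ISRE, overlapped between all ileum groups, Irf9 between 18.7 and 25.1 FPKM and Stat2 between 12.8 and 25.2 FPKM. Irf7, which amplifies the type I response, lay between 38.4 and 118 FPKM in the colon with all groups overlapping.

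Guanylate-binding proteins and immunity-related GTPases, which coat and break the vacuoles of intracellular microbes, had their highest ileum value in Ileum treated 4 for 5 of the 6 genes, Gbp3 being the exception. Igtp was 25.2, 33.6, 16.2 and 31.5 FPKM in KO ileum, 53.1, 24.1 and 67.3 in uninjected and 24.3, 74.0 and 91.02 in treated ileum, and treated minus KO gave 1.08 ± 0.46 (adjusted p = 0.939). One library each of the uninjected and treated groups, Ileum uninjected 3 and Ileum treated 1, stayed within the KO range. Iigp1 was 6.17, 7.52, 6.08 and 11.8 FPKM in KO ileum, 10.0, 1.37 and 11.0 in uninjected and 2.27, 14.6 and 42.2 in treated ileum, a range that the same 2 libraries ended at the low side. Gbp2 was 12.7, 17.4, 10.8 and 20.5 FPKM in KO and 13.1, 24.8 and 44.8 in treated ileum (0.70 ± 0.41, adjusted p = 0.939). Colon levels of Iigp1 varied most, at 11.3, 1.12, 2.20 and 12.1 FPKM in KO mice, 0.663, 2.75, 6.19 and 16.6 in uninjected and 7.85, 6.54 and 14.6 in treated colon; treated minus uninjected gave 1.08 ± 0.80 (adjusted p = 1.00), with the lowest value of the colon in Colon uninjected 1. Gbp3 was 3.28, 2.29, 3.15 and 4.27 FPKM in KO colon, 0.821, 4.50, 3.99 and 6.92 in uninjected and 5.41, 3.89 and 6.15 in treated colon, and treated minus KO gave 0.60 ± 0.24 (adjusted p = 0.652). Colon treated 2 was the one treated library below the highest KO library for Gbp3. Gbp6 treated minus uninjected was 0.58 ± 0.52 in the colon (adjusted p = 1.00), from 1.64, 2.52, 3.80 and 8.76 FPKM in uninjected to 4.99, 3.80 and 8.64 in the treated group. Irgm1 gave -0.96 ± 0.55 for uninjected minus KO (adjusted p = 0.721) and 0.69 ± 0.66 for treated minus uninjected (adjusted p = 1.00), from 7.95, 7.34, 7.42 and 14.5 FPKM in KO mice, 1.74, 4.78, 2.43 and 15.2 in uninjected and 9.25, 3.94 and 10.3 in treated colon.

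Antigen processing for MHC class I included the member with the largest difference between uninjected and KO ileum. Tap1 (chr17:34324498-34334170), a subunit of the peptide transporter, was 62.3, 56.0, 34.5 and 45.8 FPKM in KO ileum, 79.5, 188 and 89.7 in uninjected and 102, 75.2 and 64.3 in treated ileum. Every CDX2-VDR library exceeded every KO library; uninjected minus KO was 1.18 ± 0.37 (adjusted p = 0.665), treated minus KO 0.70 ± 0.29 (adjusted p = 0.939) and treated minus uninjected -0.48 ± 0.44 (adjusted p = 1.00). Psmb9, an immunoproteasome subunit whose gene starts 225 bases from that of Tap1 on the opposite strand (GRCm38.p6), was 171, 187, 145 and 97.1 FPKM in KO ileum, 226, 445 and 197 in uninjected and 263, 223 and 107 in treated ileum. Its uninjected minus KO difference was 0.89 ± 0.38 (adjusted p = 0.665) and treated minus uninjected -0.55 ± 0.50 (adjusted p = 1.00), and treated values overlapped KO. In the colon the uninjected minus KO differences were 0.69 ± 0.32 for Psmb8, a second immunoproteasome subunit (adjusted p = 0.721), 0.62 ± 0.30 for Psmb9 (adjusted p = 0.721) and 0.56 ± 0.37 for Tap1 (adjusted p = 0.721). Psmb8 in single colon libraries was 118, 57.8, 68.9 and 79.9 FPKM in KO mice, 88.2, 193, 158 and 94.4 in uninjected and 163, 92.9 and 58.2 in treated mice.

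Groups that did not overlap were counted over all members. In uninjected against KO ileum, 5 members were higher without overlap (background 5.26% of genes), namely Tap1, Irf8, Zbp1, Psmb9 and Irf1, and 0 were lower (3.35%). In treated against KO ileum, 3 were higher (3.03%), Zbp1, Tap1 and Irf8, and 0 lower (1.97%), and in treated against uninjected ileum Irf1 was the 1 member lower (1.22%) and 0 were higher (1.48%). In the colon no member separated the groups in any comparison, where 1.22% of genes were higher and 1.49% lower in uninjected than in KO mice, 1.03% and 0.342% in treated than in uninjected, and 4.16% and 3.89% in treated than in KO mice.

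The GC content of the transcripts went with the libraries that stood apart. Of the members tested, 19 in the colon had transcripts of at least 50% GC and 16 less. In Ileum uninjected 3 the GC-rich members lay a median of 0.86 log2 units above their tissue mean and the GC-poor members at -1.29. The gap between them was 2.15 there, 1.198 in Colon uninjected 1 and 1.15 in Ileum treated 1, the libraries of the steepest slope. At the other end it was -1.02 in Ileum treated 4 and -0.98 in Colon treated 4, which had the most negative slopes. The 5 members that separated uninjected from KO ileum all have GC-rich transcripts (52.8% to 57.3%), as do 18 of the 33 members tested in the ileum. With each library's GC and length trend removed, 5 of 33 members of that comparison had an unadjusted limma p under 0.05 (4.88% of all genes) and 7 of 33 did in treated minus KO ileum (7.67%). Without the libraries of steep slope the counts were 4 of 33 (3.82%) and 9 of 35 (4.5%). Both alternatives were chosen after the data were seen, and no member passed the adjusted threshold in either. With the trend removed, Zbp1 no longer separated the groups: Ileum uninjected 1 (-0.074) and Ileum treated 1 (-0.44) lay below Ileum KO 2 (-0.045). Tap1 in Ileum treated 1 (-0.16) fell below Ileum KO 1 (-0.12), while its uninjected values stayed above KO. Irf8 in both CDX2-VDR groups, and Psmb9 and Irf1 in uninjected ileum, still lay above every KO library.

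**Figure D4:**
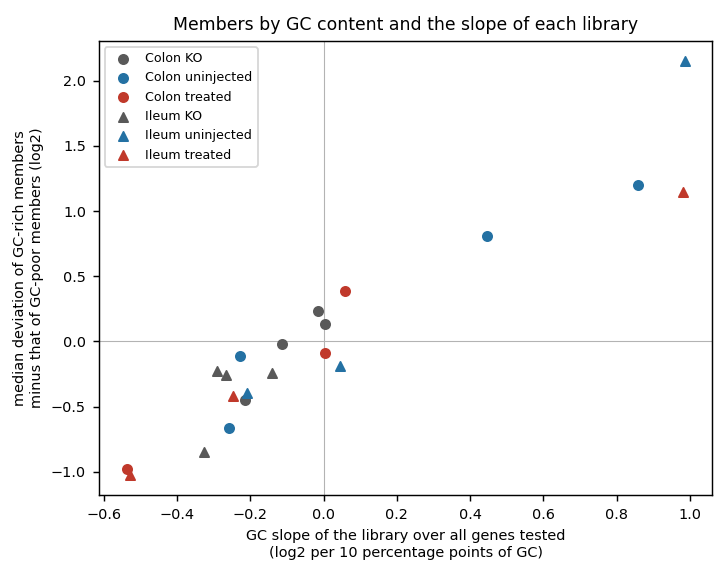
Each symbol is a library: the horizontal axis gives the slope of its log2 values on transcript GC content over all genes tested, and the vertical axis the median deviation of GC-rich members (at least 50% GC) minus that of GC-poor members. The 3 libraries with slopes above 0.75 lie between 1.15 and 2.15 on the vertical axis, and the 2 libraries with the most negative slopes lie at -1.02 and -0.98.

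Resting levels in KO mice were set side by side between tissues, with no test because the tables were scaled separately. The orders below are those of FPKM values as scaled in each tissue, and a difference between tissues was not tested. Immunoproteasome and transporter genes had higher FPKM in KO ileum: Psmb8 averaged 243 FPKM against 81.1 in KO colon, Psmb9 150.0 against 51.3 and Tap1 49.6 against 20. Irf8, Ddx58 and Cmpk2 shared this order, so that 6 of 35 members had all 4 ileum values above all 4 colon values, as 10.1% of 12252 genes did. The reverse held for 8 members, and for 29.7% of genes, among them Oas1a (76.9 FPKM in colon, 34.4 in ileum), Oas2 (4.48 and 0.725), Irf7 (69.3 and 33.8) and Dhx58 (9.70 and 4.01). Irf1 was the most abundant transcription factor of the set in both tissues, at 113 and 148 FPKM.

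The effects were also compared between the tissues. In a fit over both, 0 of 35 members differed for uninjected minus KO (background 0.00809%), for treated minus uninjected (0%) or for treated minus KO (0.00803%) at a limma adjusted p under 0.05. With an unadjusted p under 0.05, the members numbered 1 (background 1.19%), 0 (0.225%) and 0 (3.71%) in the same order. The 1 was Irf8, whose ileum effect exceeded its colon effect by 0.85 ± 0.38 log2 units (limma adjusted p = 1.00). Irf1 followed with 0.77 ± 0.38 for uninjected minus KO (limma adjusted p = 1.00) and 0.73 ± 0.35 for treated minus KO (limma adjusted p = 0.977). The differences of the differences had errors of 0.338 to 1.47 log2 units over the members, with a median of 0.711. Colon and ileum libraries were fitted as independent, since the labels do not say whether they came from the same animals.

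The genes that make the signal were scarce. None of the 18 interferon genes listed reached the filter in any table. Ifng, made by T and NK cells, was the most abundant, at 0.271, 0.349, 0.433 and 0.469 FPKM in KO ileum, 0.953, 0.464 and 0.739 in uninjected and 0.249, 1.38 and 1.94 in treated ileum. Its highest values were in Ileum treated 4 and Ileum treated 2, and any tie to the levels of the members was not tested. In the colon Ifng was at most 0.256 FPKM, while the 18 interferon genes together summed to 0.988 FPKM in Colon uninjected 3, mostly from others than Ifng. Ifnb1 was listed at 0 in 20 of the 21 libraries. All 6 receptor genes were tested by limma and 0 passed in any comparison. In each of treated minus KO colon and ileum, 1 had an unadjusted limma p under 0.05 (7.31% and 3.65% of all genes). In the colon it was Ifnar2, a chain of the type I receptor, with 0.89 ± 0.18 for treated minus KO colon (limma adjusted p = 0.135). Of the 13 sensors and adaptors listed, 11 were tested in treated minus KO colon by limma. Of these, 0 passed and 1 had an unadjusted p under 0.05 (7.31% of all genes).

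Negative regulators held one of the 2 pathway genes that passed. Socs3, which blocks JAK kinases and is induced by several cytokines, was 5.02, 4.17, 5.05 and 4.56 FPKM in KO colon, 6.99, 5.72, 6.56 and 6.29 in uninjected and 11.96, 12.2 and 16.9 in treated colon. The 3 groups did not overlap. Of all genes, 1.22% were higher without overlap in uninjected than in KO colon, 1.03% in treated than in uninjected and 4.16% in treated than in KO. The share of genes that separate all 3 groups was not counted. Socs3 rose in treated over KO colon by 1.44 ± 0.18 log2 units (limma adjusted p = 0.0193). The call was lost when any KO library was left out (adjusted p of 0.0767 to 0.11), with the replicate block (0.131), without the libraries with acinar transcripts (0.165) and with the GC and length trend removed (0.0864), while the log2 difference stayed between 1.23 and 1.48 in these fits. In the ileum Socs3 was 24.7, 22.5, 11.1 and 25.4 FPKM in KO mice, 67.5, 48.4 and 54.5 in uninjected and 66.3, 41.1 and 45.4 in the treated group, with all 6 CDX2-VDR values above KO but adjusted limma p of 0.665 and 0.688. Socs1, the inhibitor most closely tied to interferon gamma, was 12.5, 12.03, 10.9 and 8.22 FPKM in KO ileum, 45.6, 44.6 and 23.5 in uninjected and 28.6, 17.8 and 30.9 in treated ileum. Again all 6 exceeded KO, where 5.26% of genes were higher without overlap in uninjected and 3.03% in treated than in KO ileum. For Socs1, uninjected minus KO was 1.70 ± 0.31 (limma adjusted p = 0.636) and treated minus KO 1.18 ± 0.28 (limma adjusted p = 0.493). Of the 9 regulators tested in each comparison, 1 passed in treated minus KO colon (0.296% of all genes) and 0 in the other 5.

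**Figure D5:**
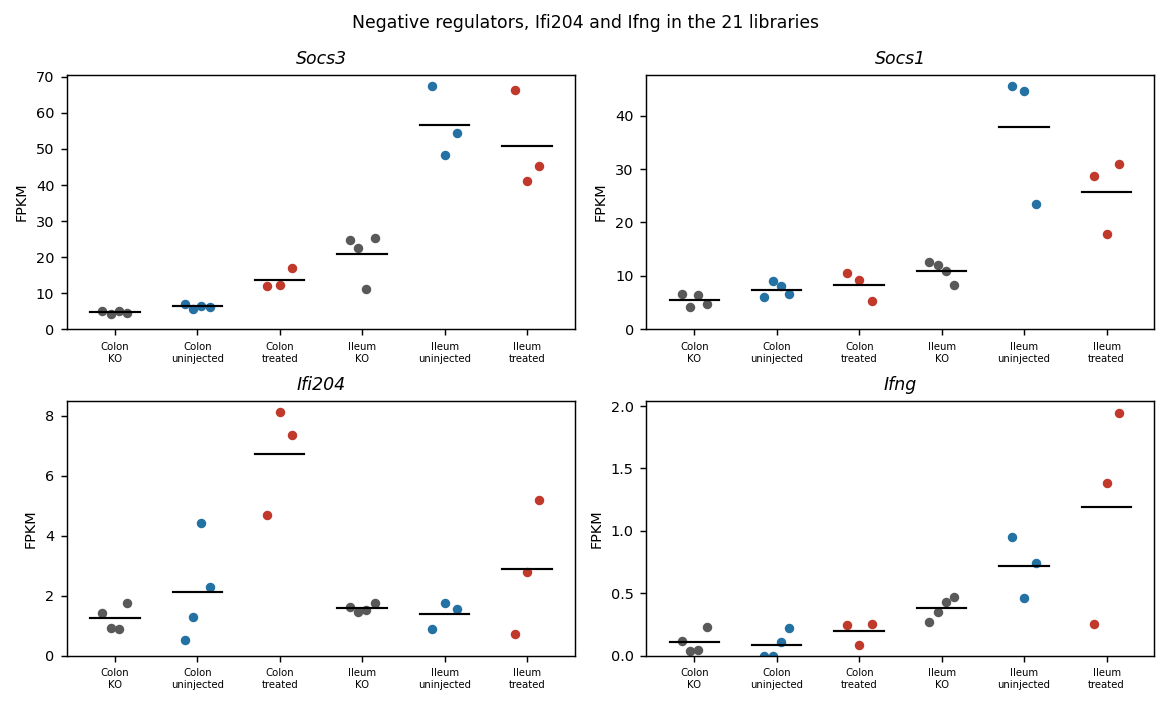
Points are FPKM of single libraries for Socs3, Socs1, Ifi204 and Ifng, with group means as black lines and linear axes from 0. Socs3 separates the 3 colon groups and Ifi204 is highest in the 3 treated colon libraries, while Socs1 and Socs3 of all 6 CDX2-VDR ileum libraries lie above the 4 KO libraries.

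A further 61 interferon-stimulated genes outside the set were found. Of the 51 tested in treated minus KO colon, 1 rose and 0 fell: Ifi204, a DNA sensor of the p200 family known from macrophages, was 1.42, 0.930, 0.887 and 1.75 FPKM in KO mice, 0.517, 1.30, 4.43 and 2.29 in uninjected and 4.68, 8.12 and 7.38 in treated colon. Its log2 difference was 2.06 ± 0.27 (limma adjusted p = 0.0246). The p200 genes are near copies of each other, so the split of reads among them is uncertain, and the call was lost in 10 of the alternatives, among them no filter (adjusted p = 0.0586), the replicate block (0.165) and without the libraries with acinar transcripts (0.215), with log2 differences of 1.90 to 2.20 in those 10. In the same comparison Ifitm3, a membrane protein that blocks viral entry, had 1.04 ± 0.20 (limma adjusted p = 0.108) and Ubd, a ubiquitin-like modifier, 1.31 ± 0.25 (0.106). Of the 51 genes, 11 had an unadjusted limma p under 0.05 here (background 7.31%) and 8 were higher without overlap (4.16%). In the other 5 comparisons 0 of these genes passed the limma threshold. With an unadjusted limma p under 0.05 there were 2 of 51 in uninjected minus KO colon (background 4.6%) and 2 of 51 in treated minus uninjected colon (1.14%). In the ileum there were 2 of 53 in uninjected minus KO (5.42%), 1 of 54 in treated minus uninjected (0.821%) and 6 of 52 in treated minus KO (3.65%).

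Summed leukocyte markers separated treated from KO colon, with no single marker past the threshold. The 8 leukocyte markers summed to 155 to 205 FPKM in treated colon against 70.7 to 103 in KO colon. Of these, 7 had a positive difference (49% of all genes) and 5 were higher without overlap (4.16%); Ptprc (CD45), the defining marker, was 1.61, 3.64, 0.208 and 3.78 FPKM in KO and 5.73, 0 and 2.18 in treated colon. The 9 macrophage and dendritic cell genes found summed to 336 to 482 against 220.4 to 264 FPKM, and all 8 tested were positive, while Siglech, which marks plasmacytoid dendritic cells, was listed at 0 in 10 of 11 colon libraries. T and NK cell markers summed to 65.3 to 108 against 14.99 to 73.5 FPKM. The 12 markers of smooth muscle and stroma summed to 1853 to 2320.4 FPKM in treated against 2413 to 3296 in KO colon. Among them 6, all contractile genes such as Actg2 and Myh11, were lower without overlap (background 3.89%) and the other 6 had positive differences; 7 had an unadjusted limma p under 0.05 and 0 passed. Of the 9 epithelial markers 8 had a negative difference, with a median of -0.41, and 0 passed. None of the leukocyte, macrophage, T and NK cell markers passed the adjusted limma threshold in this comparison, and 6 of 8, 5 of 8 and 2 of 9 tested had an unadjusted p under 0.05 (7.31% of all genes). B and plasma cell sums overlapped there (249 to 574 FPKM in treated, 201 to 382 in KO colon). In the ileum, leukocyte sums of KO mice (240.1 to 319 FPKM) overlapped those of uninjected (269 to 588) and treated mice (206 to 430.1). B and plasma cell sums were lower in uninjected (546 to 885 FPKM) than in KO ileum (1021 to 1099), although 5 of the 7 genes tested had a positive difference. Endothelial sums were also lower, at 16.5 to 19.6 against 22.1 to 28.6 FPKM, with 2 of 6 genes positive. Treated ileum overlapped KO for both lists. In bulk RNA a change in the number of such cells and a change in RNA per cell cannot be told apart, and the part of these cell types in the values of the members was not tested.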

How the data were processed

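Poly(A) RNA of 21 libraries in 6 groups was measured. The authors deposited 6 tables of FPKM values, each with 21441 genes and 2 groups of 1 tissue; reads were mapped in CLC genomics workbench (per the labels' protocols). Kallisto 0.45.0, DESeq 1.14.0, DESeq2 and the build mm9 are listed, without roles, per the submitters' processing notes. The annotation is not given in the sources used. A library differed between tables by 1 constant factor (at most 1.09), so each comparison of groups was tested within a table; the contrast of tissues, and an alternative with 3 groups, joined tables. Columns of treated and uninjected ileum libraries could be tied to a group but not to a sample. The series' design text counts 3 uninjected and 4 treated colon samples; the labels and columns, with 4 and 3, were followed.

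For each comparison, genes averaging 1 FPKM or more were tested as log2(FPKM + 0.5) by limma 3.58.1 (R 4.3.3) with an intensity trend, two-sided, with Benjamini-Hochberg adjustment over all genes tested and a threshold of 0.05; log2 differences are on this scale, which understates low genes, and carry standard errors. The contrast of tissues used 1 fit over both. Tables and plots were made with Python 3.11.15, pandas 2.3.3 and matplotlib 3.10.9. The fit was tested on simulated data. Depth was estimated from value steps that came out as whole reads (tolerance 0.001) for 74.5% of 18779 colon genes and 56.7% of 18255 ileum genes; no count test was run. Values in every library are given for up to 6 members per comparison with the smallest p, and other members by range; of other lists, genes past the threshold, up to 3 per list with the smallest p, and interferon genes may be named, and 1 listed gene is not reported here. The members, lists and rules were chosen with earlier results of these data known. Same-numbered libraries correlated in their deviations from the group means by 0.23, 0.11 and 0.50 in treated and KO ileum, and in no other comparison with 3 or more pairs did every pair exceed 0.1; there the numbers come from columns, and the block changed no call of a member. Alternatives covered pseudocounts, filters, scaling, the intensity trend, a joint fit of 3 groups, single libraries, acinar libraries, labelled sex and the block; the GC and length trend and the libraries of steep GC slope were added after seeing the data.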

Additional observations from a re-analysis of the deposited data

Results flagged for a closer look

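In the 3 groups of 4 libraries, a value was singled out when its gap to the nearest other library passed Dixon's 95% critical value for 4 values, which chance does in about 1 of 20 groups; 5 of 105 groups of values met this. Colon KO 4 gave 3 of them, each as the highest library of its group: Oas3 at 13.96 FPKM where the others lay between 6.87 and 7.596, Ifi44 at 7.70 where the others lay between 1.97 and 2.24, and Irgm1 at 14.5 where the others lay between 7.34 and 7.95. Irf1 in Colon uninjected 3 was lowest of its group at 66.2 FPKM, below 123 to 133 in the others; this library also held pancreatic acinar transcripts at a median of 8582 FPKM. Oas1a in Ileum KO 4 was lowest of its group at 23.4 FPKM, below 37.0 to 39.6 in the others.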

How the results depend on the processing

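The count of members called was 0 in all 187 alternative fits of the 9 comparisons, leaving out each library included, and the lowest adjusted limma p of any member was 0.0672 (uninjected minus KO colon without Colon uninjected 4). The replicate block gave 0 members called in every comparison; it moved the members' median of treated minus uninjected ileum from 0.05 to -0.15 and reversed Ifi44 in treated minus uninjected ileum (-0.054) and Irf8 in the tissue contrast of treated minus uninjected (0.26). Labelled sex as a covariate moved the members' median to 0.82 in uninjected minus KO colon and -0.59 in treated minus uninjected colon, and reversed Oas1g (-0.12) and Irgm1 (0.74) in the former and Iigp1 (-0.83), Ifih1 (-0.70), Gbp6 (-0.62), Oas1g (0.27) and Irgm1 (-1.01) in the latter. That fit rests on Colon uninjected 4, the 1 male library of its group by label, while Ddx3y, a Y-linked gene, stood at 12.1 FPKM in Colon uninjected 3 despite its female label, within the range of the KO males (11.8 to 17.2). In the ileum, Ddx3y was 2.32 FPKM in Ileum uninjected 3, between Ileum uninjected 1 (0.035) and Ileum uninjected 4 (8.98). Ileum uninjected 3 also held the highest Tap1, Irf8, Zbp1, Psmb9 and Irf1 values of the ileum. Removing the GC and length trend reversed Socs1 in uninjected minus KO colon (-0.062). Without single libraries the medians ranged from -0.10 to 0.53, -0.27 to 0.54 and -0.09 to 0.63 in the colon (uninjected minus KO, treated minus uninjected, treated minus KO) and from -0.11 to 0.20, -0.10 to 0.26 and 0.10 to 0.28 in the ileum. The count of all genes called was 10, 0 and 37 in these colon comparisons and 1, 0 and 10 in the ileum, and ranged over the alternatives from 1 to 68, 0 to 4, 14 to 56, 0 to 5, 0 to 34 and 3 to 14. The cause of these shifts was not tested.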
